A study of Mus musculus with 12 samples.

Results

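The 36 genes described here encode proteins that build the photoreceptor cilium and carry cargo into it. They were taken as a named list of gene symbols, and each was found as 1 row of the expression table, 36 of 40202 genes. The list holds 6 subunits of the BBSome, 2 chaperonin-like Bardet-Biedl syndrome (BBS) proteins, 11 proteins of intraflagellar transport (IFT) complex B and 3 of complex A. It also holds 7 proteins of the transition zone, 4 carriers or regulators of lipid-modified proteins, and Lca5, Tulp1 and Mak. RNA had been sequenced from retina of C57BL/6J mice in 4 groups of 3 libraries, from wild-type (WT) animals or from animals with laser-induced choroidal neovascularisation (CNV), a lesion model in which vessels grow from the choroid towards the retina. All groups had received an intravitreal injection of 1 µl, either of vehicle (0.5X PBS) or of cp-asiNRL at 6 µg/µl. cp-asiNRL is a cell-penetrating small interfering RNA against Nrl, the transcription factor that sets rod identity. The labels give neither the age of the mice, the number of animals behind a library nor the interval between injection and sampling, so p-values here measure the spread between libraries, which may be technical.

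The outer segment of a rod or cone is a modified primary cilium, joined to the cell body by a narrow connecting cilium that corresponds to the transition zone of other cilia. Proteins for the outer segment are made in the inner segment and pass through this neck, carried by IFT trains or by soluble carriers of lipid-modified proteins, while the BBSome, an adaptor complex on the trains, brings membrane proteins back out. Loss of many of these genes causes retinal degeneration in humans and mice, alone or as part of a syndrome such as Bardet-Biedl, Senior-Løken or Joubert syndrome, or as Leber congenital amaurosis.

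Levels are given in CPM, that is, reads of a gene scaled to the library's total with a trimmed-mean factor. Differences are given as log2 changes of CPM + 1 with their standard error (SE) from limma. A gene was called when its p-value, adjusted by Benjamini-Hochberg over 25619 genes, was under 0.05. The libraries held 51298466 to 69394486 reads in genes, and each of the 36 genes passed the filter on low values, with 440 to 60904 reads a library. Nrl stood at 560.1, 505 and 555 CPM in the WT vehicle libraries and at 397, 418 and 467 CPM in the WT cp-asiNRL libraries, which did not overlap. In CNV retina Nrl stood at 449, 423 and 524 CPM under vehicle and at 324, 483 and 263 CPM under cp-asiNRL, where replicate 2 lay among the vehicle libraries. The change of Nrl was not called in either retina (limma adjusted p = 0.318 in WT and 0.25 in CNV). Replicate 2 of the CNV cp-asiNRL group also stood apart in rod genes, so the results for that group are given with and without it. In bulk retina, fewer cells of a type and less RNA per cell cannot be told apart, and no level can be assigned to photoreceptors alone.

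In WT vehicle retina the 36 genes spanned a wide range of levels. Per kilobase of genomic span, introns included, Unc119 was highest at 90.03 ± 5.64 CPM per kb (SD, 3 libraries), followed by Tulp1 at 18.9 ± 1.097 and Rpgrip1 at 8.69 ± 0.551 CPM per kb. These encode a carrier of rod transducin, a photoreceptor protein needed for rhodopsin transport, and the anchor of Rpgr in the connecting cilium. The 6 BBSome genes lay close together, between 2.28 CPM per kb for Bbs9 and 4.29 CPM per kb for Bbs7. Most IFT genes were lower, from 0.505 CPM per kb for Ift88 to 1.98 CPM per kb for Ift22, with Ift20 above them at 5.05 CPM per kb. Nphp4, at 0.459 CPM per kb, was the lowest of the 36 genes. The span is not the length of a transcript, so these values rank genes only roughly. Over all 12 libraries the coefficient of variation of CPM ran from 3.05% for Ift140 to 15.2% for Unc119.

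Under cp-asiNRL the cilium genes were lower on balance, by small amounts, and more of them in CNV than in WT retina. In WT retina 26 of the 36 genes had a log2 change below 0, against 49.5% of all genes tested, and their median change was -0.04, against 0.00 over all genes. In CNV retina 35 of 36 were below 0, against 49.6% of all genes, with a median of -0.14, and Ift57 was the 1 exception. None of the 36 was called by limma in WT retina, where 0.141% of all genes were, or in CNV retina, where 0.0468% were, and limma voom on the same reads called 0 in each. At an unadjusted p under 0.05, 5 genes were lower in WT retina (9.79% of all genes) and 2 were higher (5.55% of all genes), shares near the background. The 5 became 2 without WT vehicle replicate 1 (5.35% of all genes), 2 (9.07%) or 3 (8.55%) or WT cp-asiNRL replicate 2 (6.72%). They became 1 without WT cp-asiNRL replicate 1 (6.63%) and 3 without CNV vehicle replicate 1 (10.5%) or 2 (9.35%). Without CNV cp-asiNRL replicate 2 they became 9 (12% of all genes). In CNV retina 17 of the 36 were lower at that level, against 8.41% of all genes, and 0 were higher. That count of 17 moved with single CNV libraries, as did the share of all genes. It was 6 without CNV cp-asiNRL replicate 1 (4.26% of all genes), 6 without replicate 3 (4.44%) and 22 without replicate 2 (16.1%). It was 11 without CNV vehicle replicate 1 (7.34%) and 10 without CNV vehicle replicate 3 (4.99%). Without CNV vehicle replicate 2 or any single WT library it was 16 or 17 (7.48% to 8.98% of all genes).

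Taking the mean of both cp-asiNRL effects, over all 12 libraries, 33 of 36 genes were below 0 (49.4% of all genes) and the median change was -0.10. Bbs4 and Bbs1 were called, both lower, where 2.36% of all genes were called in either direction and 1.65% lower. At an unadjusted p under 0.05, 15 of the 36 were lower, against 13.7% of all genes. In WT retina 7 genes had all 3 cp-asiNRL libraries below all 3 vehicle libraries (15.8% of all genes), namely Bbs1, Bbs4, Ift20, Ift27, Tulp1, Arl3 and Unc119. For 3 genes they were all above (11.0% of all genes), namely Ift57, Rpgr and Pde6d. In CNV retina 7 had them all below (6.73% of all genes), namely Bbs4, Ift27, Ift46, Ift52, Ift43, Rpgrip1 and Nphp4.

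**Figure D1:**
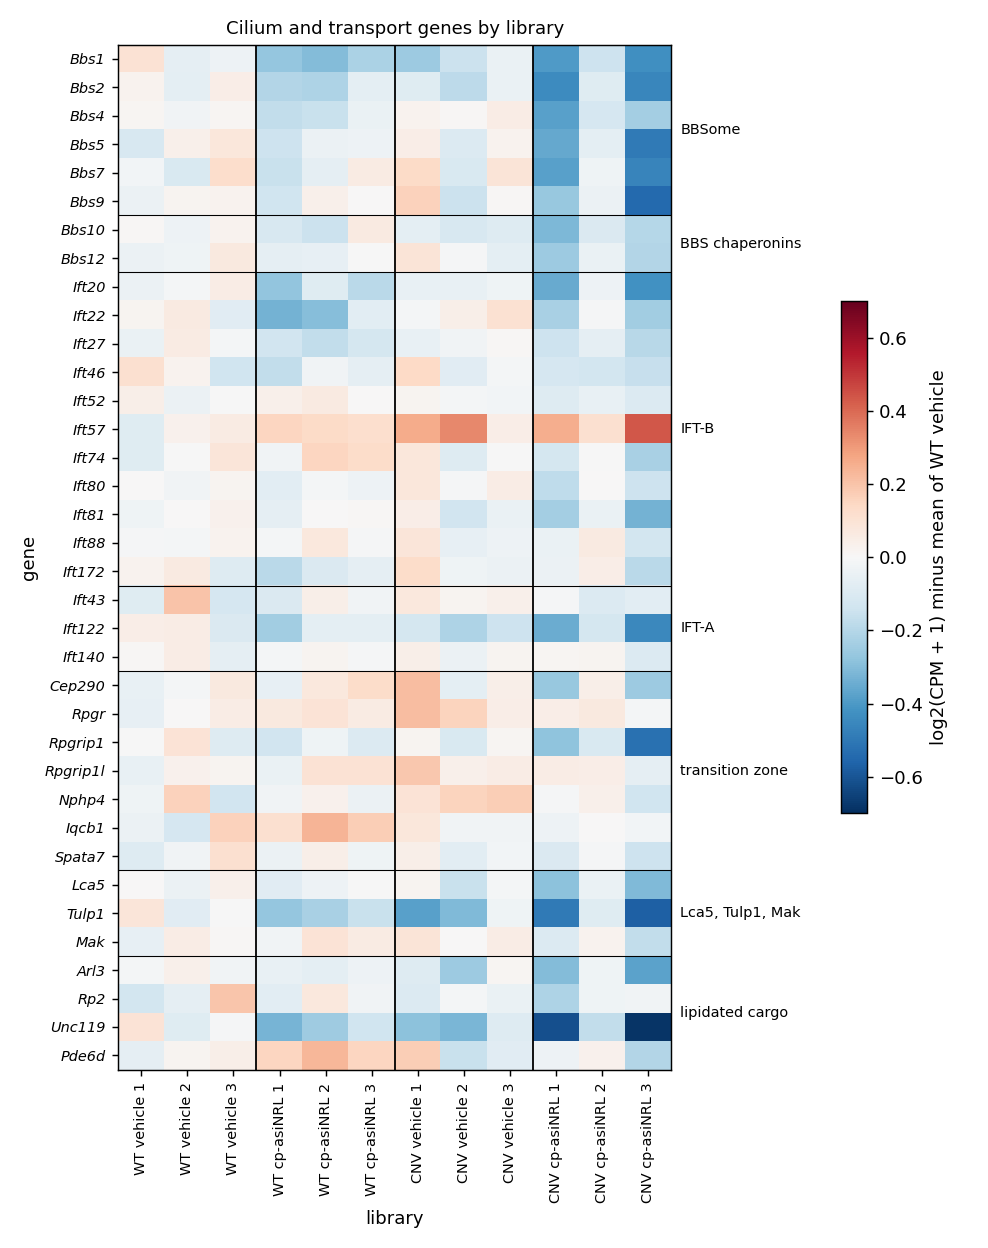
Each row is 1 of the 36 genes, ordered by role, and each column 1 of the 12 libraries; colour gives log2(CPM + 1) minus the mean of the 3 WT vehicle libraries, on a scale from -0.7 to 0.7. The blue columns of CNV cp-asiNRL replicates 1 and 3, with member medians of -0.22 and -0.21, stand beside the pale column of replicate 2, with a median of -0.03.

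The BBSome genes were the group with the lowest median change in CNV retina under cp-asiNRL, at -0.28, with 6 of 6 lower at an unadjusted p under 0.05 (8.41% of all genes). Each of the 6 was also below 0 in WT retina, with a median of -0.10. Bbs1 encodes the subunit that binds the GTPase Arl6 and so docks the complex on membranes. It stood at 69.5, 62.03 and 63.2 CPM in WT vehicle and at 53.6, 52.4 and 55.4 CPM in WT cp-asiNRL libraries. In CNV retina the level was 54.2, 58.4 and 62.6 CPM under vehicle and 49.01, 58.5 and 47.9 CPM under cp-asiNRL. The WT groups did not overlap, whereas in CNV retina cp-asiNRL replicate 2 lay within the range of the vehicle libraries. Averaged over both retinas Bbs1 fell by 0.22 on the log2 scale (SE 0.053, limma adjusted p = 0.0451), with -0.26 (SE 0.075) in WT and -0.17 (SE 0.075) in CNV retina. Bbs4, a subunit that also binds the centriolar satellite protein PCM1, stood at 93.7, 91.03 and 93.6 CPM in WT vehicle and 82.1, 83.2 and 89.6 CPM in WT cp-asiNRL libraries. In CNV retina Bbs4 was at 94.3, 93.5 and 96.3 CPM under vehicle and 71.1, 85.5 and 78.4 CPM under cp-asiNRL, so that all 6 cp-asiNRL libraries lay below all 6 vehicle libraries. Its mean change, -0.20 (SE 0.043), was called (limma adjusted p = 0.0331), and it was -0.13 (SE 0.060) in WT and -0.27 (SE 0.060) in CNV retina. Both calls were near the threshold and were lost under some settings. Of the 8 other settings that kept all 12 libraries, Bbs4 was called in 6 and lost with no filter on low values and with the replicate block, with limma adjusted p from 0.000922 to 0.0688. Bbs1 was called in 3 and lost with library totals, limma voom, the span trend removed, no filter and the replicate block, with limma adjusted p from 0.00103 to 0.0929. That of Bbs4 was kept when WT cp-asiNRL replicate 3, CNV vehicle replicate 1 or CNV cp-asiNRL replicate 2 was left out and lost when any of the other 9 libraries was, with adjusted p from 0.000664 to 0.1 over these 12 limma fits. That of Bbs1 was kept without CNV vehicle replicate 1 or CNV cp-asiNRL replicate 2 and lost without any of the other 10 libraries, with adjusted p from 0.0008 to 0.131.

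Bbs2, Bbs7 and Bbs9 form the core on which the BBSome is assembled, and Bbs5 holds domains that bind phosphoinositides. Bbs7 stood at 171, 160.5 and 188 CPM in WT vehicle, 155, 165 and 179.98 CPM in WT cp-asiNRL, 189, 160.1 and 184 CPM in CNV vehicle and 133, 169 and 125 CPM in CNV cp-asiNRL libraries. Its change of -0.33 (SE 0.101) in CNV retina was the lowest of the 36 genes (limma adjusted p = 0.229), and in WT retina it was -0.05 (SE 0.101). Bbs5 stood at 64.4, 58.1 and 63.3 CPM in CNV vehicle and 48.3, 59.3 and 43.9 CPM in CNV cp-asiNRL libraries, a change of -0.30 (SE 0.087). In WT retina Bbs5 was at 57.6, 63.7 and 65.7 CPM against 56.1, 60.5 and 60.6 CPM. For both genes CNV cp-asiNRL replicates 1 and 3 lay below every other library of the study, and replicate 2 among the vehicle libraries. Bbs2 was at 90.9, 85.04 and 93.5 CPM in CNV vehicle and 70.98, 91.04 and 70.2 CPM in CNV cp-asiNRL libraries, and Bbs9 at 1054, 848 and 947 and 782, 917 and 646 CPM, with changes of -0.22 (SE 0.083) and -0.29 (SE 0.109). In WT retina the means were 96.7 ± 3.92 against 86.4 ± 5.12 CPM for Bbs2 and 942 ± 24.2 against 921 ± 58.5 CPM for Bbs9 (SD, 3 libraries each), and the groups overlapped. Without CNV cp-asiNRL replicate 2, each of the 6 BBSome genes was called lower in CNV retina by limma, against 8.66% of all genes. The limma adjusted p ran from 0.00113 for Bbs5 to 0.0113 for Bbs1, and the median change was -0.38. That library was left out because it stood apart in these same data.

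**Figure D2:**
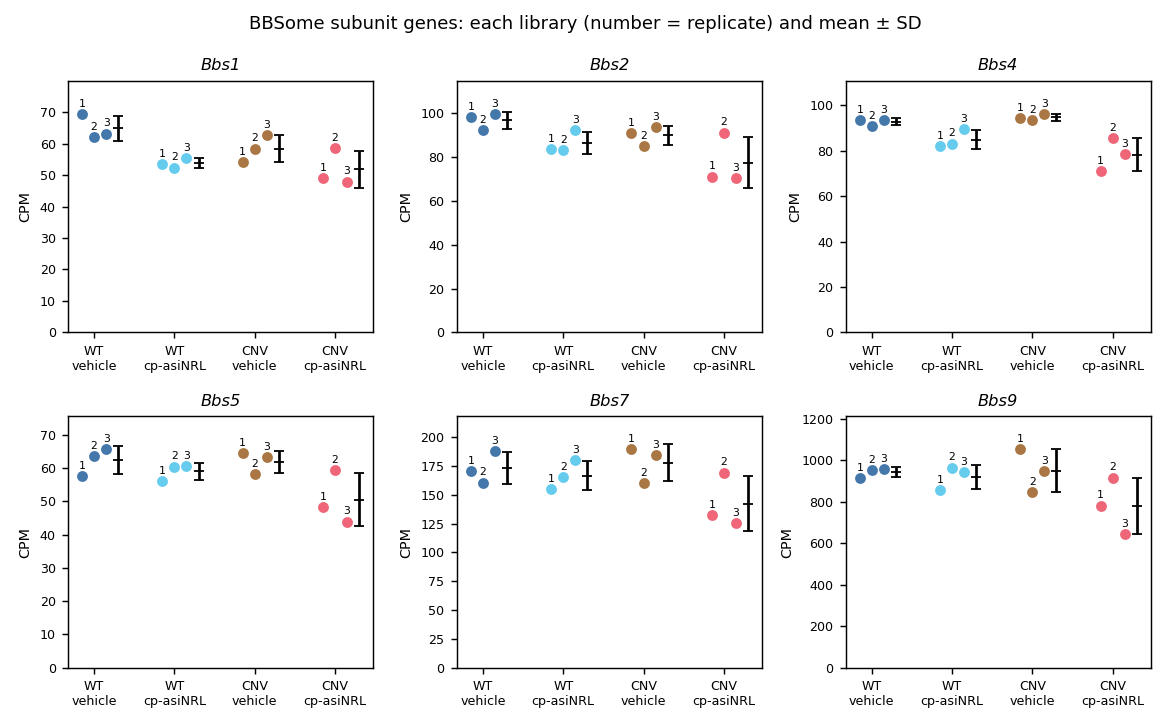
Levels in CPM of the 6 BBSome genes; each point is 1 library, its number the replicate, and the bar beside each group is the mean ± SD of 3 libraries. For Bbs4 all 6 cp-asiNRL libraries, at 71.1 to 89.6 CPM, lie below the 6 vehicle libraries, at 91.0 to 96.3 CPM. For each of the 6 genes, Bbs4 included, CNV cp-asiNRL replicate 2 lies above replicates 1 and 3.

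The stretch around the transcription start was read for 33 of the 36 genes from RefSeq promoters of build GRCm38.p6, 250 bases before to 50 after the start, on the gene's strand. The X-box, to which RFX factors of ciliary genes bind, was searched on both strands by its better-kept part, GTTGCNNNG. It was present in 12 of the 33 genes (36.4%), against 15.4% of all 27025 genes with a promoter. The letters TAATCC, a core of sites of the photoreceptor factor CRX, were present in 4 of 33 (12.1%, against 8.14%). TGCTGA, a part of sites of NRL, was in 4 of 33 (12.1%, against 21.7%), and the 3 motifs can overlap. A match is a description of the letters and not a binding site. The promoters of Bbs1, which was called, and of Bbs7, which had the lowest change in CNV retina and was chosen after its values were seen, are shown because both held the X-box part. Bbs4, which was also called, held 0 matches to it, as did Bbs2, Bbs5 and Bbs9. The promoters of Bbs1 and Bbs7 lie on the minus strand at chr19:4906578-4906877 and chr3:36613340-36613639 of GRCm38.p6. Capitals mark matches, 1 to TAATCC and 1 to the X-box part in Bbs1 and 2 to the X-box part in Bbs7.
Bbs1: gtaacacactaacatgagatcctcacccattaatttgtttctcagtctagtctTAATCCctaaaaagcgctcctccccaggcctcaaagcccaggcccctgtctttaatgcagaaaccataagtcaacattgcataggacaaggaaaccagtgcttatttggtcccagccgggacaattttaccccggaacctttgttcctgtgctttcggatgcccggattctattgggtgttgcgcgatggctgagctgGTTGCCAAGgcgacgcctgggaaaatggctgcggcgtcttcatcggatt
Bbs7: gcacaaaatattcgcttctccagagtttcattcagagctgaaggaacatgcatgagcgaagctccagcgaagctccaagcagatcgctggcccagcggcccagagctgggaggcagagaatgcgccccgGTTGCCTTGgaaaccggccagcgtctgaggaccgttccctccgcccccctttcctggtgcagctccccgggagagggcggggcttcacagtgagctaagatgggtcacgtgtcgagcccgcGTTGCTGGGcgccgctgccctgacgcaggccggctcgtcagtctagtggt

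Bbs10 and Bbs12, chaperonin-like proteins that help the BBSome core to assemble, stood below 0 in both retinas. Bbs12 stood at 84.6, 78.7 and 75.6 CPM in CNV vehicle and 66.4, 76.9 and 68.6 CPM in CNV cp-asiNRL libraries, a change of -0.17 (SE 0.061) (limma adjusted p = 0.246). In WT retina it was at 79.3 ± 3.41 against 77.03 ± 1.75 CPM. Bbs10, a gene of low level, was at 9.72 ± 0.215 CPM in WT vehicle and between 8.32 and 9.25 CPM in the means of the other groups. Its changes of -0.07 (SE 0.076) in WT and -0.11 (SE 0.076) in CNV retina were not called.

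The IFT-B genes, whose products form the complex that kinesin carries outwards, had a median change of -0.04 in WT and -0.11 in CNV retina under cp-asiNRL, with 3 of 11 and 4 of 11 lower at an unadjusted p under 0.05 (9.79% and 8.41% of all genes). Ift22, which encodes a small GTPase-like subunit, stood at 12.7, 13.2 and 11.8 CPM in WT vehicle and 9.77, 10.03 and 11.9 CPM in WT cp-asiNRL libraries. In CNV retina it was at 12.4, 12.9 and 13.6 CPM under vehicle and 10.6, 12.5 and 10.4 CPM under cp-asiNRL. In each retina 2 cp-asiNRL libraries lay below all vehicle libraries and 1 among them, and the changes were -0.23 (SE 0.085) and -0.20 (SE 0.085) (limma adjusted p = 0.21 and 0.276). Ift20 encodes the subunit that also sits at the Golgi and takes part in sorting opsin to the cilium. Its level was 26.3, 26.9 and 28.1 CPM in WT vehicle and 22.2, 25.5 and 23.7 CPM in WT cp-asiNRL libraries, a change of -0.18 (SE 0.083) (limma adjusted p = 0.311). In CNV retina Ift20 was at 26.1, 26.1 and 26.5 and 21.01, 26.4 and 19.99 CPM, a change of -0.23 (SE 0.083). The WT groups did not overlap, and in CNV retina replicate 2 of cp-asiNRL lay at the level of the vehicle libraries. Ift27, a Rab-like GTPase that links trains to the BBSome, was lower without overlap in both retinas, at 8.83 ± 0.353 against 7.89 ± 0.157 CPM in WT and 8.66 ± 0.216 against 7.96 ± 0.409 CPM in CNV retina, and neither change was called.

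Ift57 was above 0 in both retinas. Its product is a peripheral subunit of IFT-B, and it stood at 33.1, 36.00 and 36.7 CPM in WT vehicle and 39.3, 38.8 and 38.3 CPM in WT cp-asiNRL libraries, all 3 higher. In CNV retina it was at 42.3, 44.8 and 36.4 CPM under vehicle and 42.2, 38.2 and 48.1 CPM under cp-asiNRL, where the groups overlapped. The changes were 0.13 (SE 0.082) in WT and 0.05 (SE 0.082) in CNV retina, and under vehicle CNV was above WT retina by 0.21 (SE 0.082), with limma adjusted p = 0.459, 0.769 and 0.621. Ift57 shares its span with Gm52251 on the same strand and Gm15518 on the other, with mean reads of 224 and 498 against 2373, so its level is uncertain. Ift74 and Ift81, the pair that binds tubulin as cargo, were at 0.08 (SE 0.070) and -0.02 (SE 0.066) in WT retina and at -0.11 (SE 0.070) and -0.16 (SE 0.066) in CNV retina. Ift74 was at 58.3, 66.02 and 64.9 CPM in WT cp-asiNRL and 54.4, 59.4 and 50.6 CPM in CNV cp-asiNRL libraries, a difference of -0.20 (SE 0.070) between the retinas (limma adjusted p = 0.218). Its opposite-strand neighbour Lrrc19, which lies wholly inside it, was at -0.30 (SE 0.095). Ift80 was at -0.15 (SE 0.052) in CNV retina, and Ift46, Ift52, Ift88 and Ift172 were between -0.15 and -0.03 there and between -0.12 and 0.03 in WT retina, without a call.

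The products of the 3 IFT-A genes serve the return of trains with dynein and the entry of membrane receptors. Under cp-asiNRL 0 of the 3 had an unadjusted p under 0.05 in either retina. Of all genes, 9.79% were lower and 5.55% higher at that level in WT retina and 8.41% lower in CNV retina. At these shares 0 of 3 is near the background. Ift140 was the steadiest of the 36 genes, at 61.8 ± 2.56, 61.8 ± 0.874, 62.1 ± 1.86 and 60.9 ± 2.76 CPM in WT vehicle, WT cp-asiNRL, CNV vehicle and CNV cp-asiNRL retina (SD, 3 libraries each). Ift122 stood at 87.5, 87.8 and 78.9 CPM in WT vehicle and at 66.4, 77.7 and 61.7 CPM in CNV cp-asiNRL libraries. Its 3 CNV vehicle libraries, at 77.6, 72.7 and 76.5 CPM, all lay below the WT vehicle libraries, and its changes were -0.13 (SE 0.077) in WT and -0.14 (SE 0.077) in CNV retina. Ift43 was at -0.03 (SE 0.072) and -0.10 (SE 0.072).

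The 7 transition zone genes, whose products hold the connecting cilium together and gate what passes, had a median change of 0.05 in WT retina under cp-asiNRL, with 3 of 7 below 0 (49.5% of all genes), and -0.10 in CNV retina, with 7 of 7 below 0 (49.6% of all genes). For Cep290, Rpgr and Iqcb1 the difference of the 2 effects, CNV minus WT, was below 0 at an unadjusted p under 0.05, which 3 of the 36 genes showed (3.04% of all genes). For this difference 0 of the 36 were called by limma (0% of all genes) or by limma voom. Those 3 became 0 without WT vehicle replicate 1 (1.74% of all genes), WT cp-asiNRL replicate 2 (1.7%), CNV vehicle replicate 1 (1.84%) or CNV cp-asiNRL replicate 3 (2.11%). They became 1 without WT cp-asiNRL replicate 3 (1.94%) or CNV cp-asiNRL replicate 1 (2.33%). Without WT vehicle replicate 3 they became 5 (4.21%), without WT cp-asiNRL replicate 1 6 (3.3%), without CNV vehicle replicate 2 8 (4.6%) and without CNV cp-asiNRL replicate 2 17 (7.58%). Cep290, which links the microtubule ring to the membrane, stood at 239, 245 and 260.03 CPM in WT vehicle and 238, 262 and 271 CPM in WT cp-asiNRL libraries. In CNV retina Cep290 was at 289, 237 and 256 CPM under vehicle and 206, 255 and 208 CPM under cp-asiNRL, where replicates 1 and 3 were the lowest libraries of the study. The effects were 0.05 (SE 0.087) and -0.22 (SE 0.087), and their difference -0.27 (SE 0.123) (limma adjusted p = 0.788). Rpgr, the X-linked regulator whose loss is a frequent cause of retinitis pigmentosa in humans, was at 99.5, 104 and 108 CPM in WT vehicle and 109, 111 and 108 CPM in WT cp-asiNRL libraries. In CNV retina Rpgr was at 120.2, 115 and 107 CPM under vehicle and 107, 109 and 103 CPM under cp-asiNRL. The effects were 0.07 (SE 0.052) and -0.10 (SE 0.052), and their difference was -0.18 (SE 0.074) (limma adjusted p = 0.788). CNV vehicle replicates 1 and 2 held the highest Rpgr levels, and CNV was above WT retina under vehicle by 0.14 (SE 0.052) (limma adjusted p = 0.621).

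Iqcb1, a partner of Cep290, was at 39.1, 37.1 and 45.2 CPM in WT vehicle, 43.6, 47.7 and 45.6 CPM in WT cp-asiNRL, 42.7, 39.7 and 39.6 CPM in CNV vehicle and 39.4, 40.3 and 39.7 CPM in CNV cp-asiNRL libraries. Under cp-asiNRL its 3 CNV libraries lay below all 3 WT libraries, by -0.19 (SE 0.066) (limma adjusted p = 0.213), and in WT retina cp-asiNRL was above vehicle by 0.17 (SE 0.066) (limma adjusted p = 0.228). The whole span of Iqcb1 lies inside Eaf2 on the opposite strand, and Eaf2 was at 0.17 (SE 0.068) and -0.20 (SE 0.068) in these comparisons, so the reads of the pair cannot be told apart. Rpgrip1, the anchor of Rpgr, stood at 503, 459.6 and 499.8 CPM in CNV vehicle and 407, 459 and 344 CPM in CNV cp-asiNRL libraries. These groups did not overlap, at a change of -0.28 (SE 0.087) (limma adjusted p = 0.231), and in WT retina the levels were 496 ± 31.5 and 466 ± 17.1 CPM. Nphp4 was at 42.4, 44.3 and 44.7 CPM in CNV vehicle and 39.3, 40.6 and 35.8 CPM in CNV cp-asiNRL libraries, also without overlap, at -0.18 (SE 0.069), and at -0.01 (SE 0.069) in WT retina. Rpgrip1l, a scaffold of the transition zone in most ciliated cells, and Spata7, which helps to keep Rpgrip1 in the connecting cilium, were at -0.08 (SE 0.059) and -0.07 (SE 0.059) in CNV retina and were not called.

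**Figure D3:**
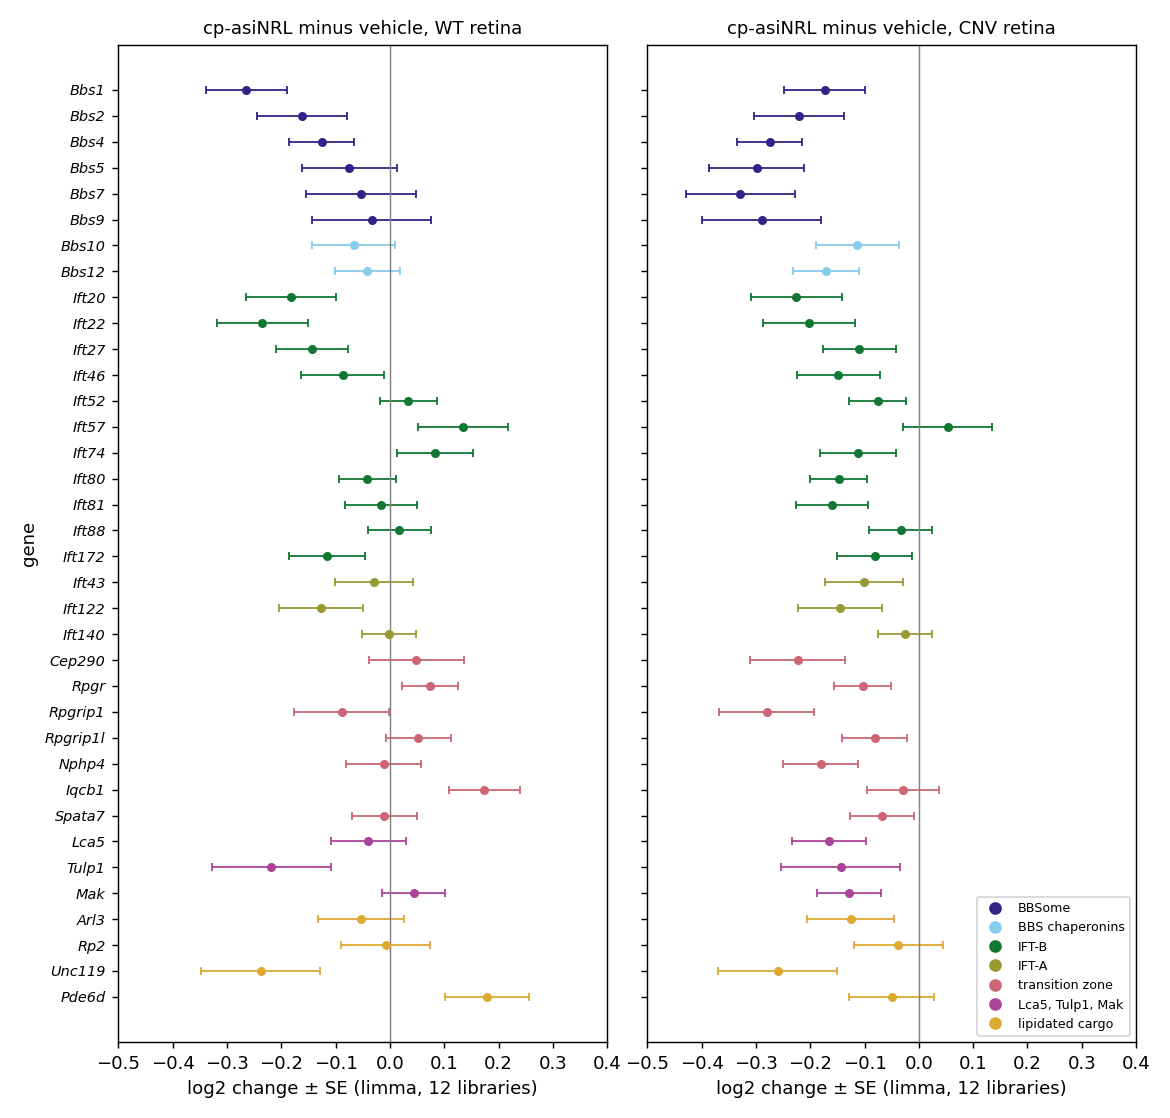
Log2 change between cp-asiNRL and vehicle with its standard error for each of the 36 genes, in WT retina (left) and CNV retina (right), coloured by role. In WT retina the points lie on both sides of 0, from -0.26 for Bbs1 to 0.18 for Pde6d, and in CNV retina all but Ift57 lie below 0.

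Tulp1, a tubby-family protein of photoreceptors that rhodopsin transport needs, stood at 274, 244 and 258 CPM in WT vehicle and 214, 221 and 232 CPM in WT cp-asiNRL libraries, without overlap. In CNV retina it was at 199, 209 and 253 CPM under vehicle and 183, 244 and 174 CPM under cp-asiNRL. CNV vehicle replicates 1 and 2 thus lay below the 3 WT cp-asiNRL libraries, and CNV cp-asiNRL replicate 2 close to the lowest WT vehicle library. The changes under cp-asiNRL were -0.22 (SE 0.110) and -0.14 (SE 0.110), and CNV was at -0.24 (SE 0.110) against WT retina under vehicle, each without a call (limma adjusted p = 0.358, 0.513 and 0.647). Lca5, or lebercilin, which binds IFT proteins, was at 185, 164 and 181 CPM in CNV vehicle and 149.5, 177 and 147 CPM in CNV cp-asiNRL libraries, a change of -0.16 (SE 0.068), and at -0.04 (SE 0.068) in WT retina. Mak, a kinase that limits the length of the photoreceptor cilium, was at 0.04 (SE 0.059) in WT and -0.13 (SE 0.059) in CNV retina.

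Among the carriers of lipid-modified proteins, Unc119 and Pde6d stood on opposite sides of 0 in WT retina. Unc119 binds acylated cargo such as the alpha subunit of rod transducin, and was at 544, 480.1 and 507 CPM in WT vehicle and 407, 429 and 462 CPM in WT cp-asiNRL libraries. In CNV retina Unc119 was at 418, 409 and 479 CPM under vehicle and 333, 452 and 316 CPM under cp-asiNRL. All WT cp-asiNRL and all CNV vehicle libraries lay below the WT vehicle libraries, with changes of -0.24 (SE 0.110) for cp-asiNRL in WT, -0.26 (SE 0.110) for cp-asiNRL in CNV and -0.23 (SE 0.110) for CNV under vehicle (limma adjusted p = 0.318, 0.28 and 0.656). Pde6d binds prenylated cargo such as the catalytic subunits of rod phosphodiesterase, and stood at 80.1, 84.8 and 86.2 CPM in WT vehicle and 92.9, 98.6 and 93.00 CPM in WT cp-asiNRL libraries, all 3 higher. In CNV retina Pde6d was at 94.4, 74.9 and 79.2 CPM under vehicle and 81.6, 85.3 and 72.4 CPM under cp-asiNRL, where the groups overlapped. The changes were 0.18 (SE 0.078) and -0.05 (SE 0.078), and under cp-asiNRL all 3 CNV libraries lay below the WT libraries by -0.25 (SE 0.078) (limma adjusted p = 0.211). Arl3, the GTPase that releases cargo from both carriers inside the cilium, was at 109 ± 2.54, 105 ± 1.11, 101 ± 9.39 and 92.6 ± 12.2 CPM in WT vehicle, WT cp-asiNRL, CNV vehicle and CNV cp-asiNRL retina. Rp2, which switches Arl3 off, was at -0.01 (SE 0.082) and -0.04 (SE 0.082) under cp-asiNRL.

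Between CNV and WT retina under vehicle the cilium genes did not move in one direction. The median change was 0.00, 19 of 36 were below 0 (50.3% of all genes), and limma and limma voom called 0 of 36, as limma called 0% of all genes. At an unadjusted p under 0.05 there were 3 genes (7.67% of all genes), Ift57 and Rpgr higher and Tulp1 lower. Without WT vehicle replicate 1 (1.88% of all genes lower) or CNV vehicle replicate 1 (2.72% lower) there were 0 at that level. Without CNV vehicle replicate 2 there was 1 higher and 0 lower (2.96% of all genes lower). Without WT vehicle replicate 2, CNV vehicle replicate 3, CNV cp-asiNRL replicate 2 or replicate 3 there were 2 to 4 lower (3.69% to 5.67% of all genes) and 2 to 4 higher. Bbs10, Ift122 and Unc119 were lower in all 3 CNV libraries (8.04% of all genes) and Rpgrip1l higher (7.54% of all genes). CNV vehicle replicates lay apart, with 15 of 36 genes of replicate 1 above all 3 WT vehicle libraries (30.1% of all genes) and 17 of 36 of replicate 2 below them (28.9% of all genes). Under cp-asiNRL 32 of 36 genes were lower in CNV than in WT retina (47.7% of all genes), with a median of -0.12. None of the 36 was called, that is, 0 by limma (0% of all genes) and 0 by limma voom, and 14 were lower at an unadjusted p under 0.05 (7.74% of all genes). For Ift52, Iqcb1 and Pde6d the groups did not overlap, with CNV lower (8.37% of all genes). That 14 became 2 without WT cp-asiNRL replicate 2 (3.97% of all genes) and 4 without WT cp-asiNRL replicate 3 (4.04%). It became 5 without CNV cp-asiNRL replicate 1 (4.22%), 2 without replicate 3 (3.27%) and 23 without replicate 2 (15.3%). The effect of cp-asiNRL was lower in CNV than in WT retina for 31 of 36 genes (46.4% of all genes), with a median difference of -0.09. These comparisons share libraries with those of cp-asiNRL against vehicle and are not separate evidence.

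The lower levels in CNV cp-asiNRL retina lay in 2 of its 3 libraries. Of the 36 genes, 30 in replicate 1 and 33 in replicate 3 were below all 3 CNV vehicle libraries, against 32.0% and 33.9% of all genes, and 7 in replicate 2 were (20.9% of all genes). In WT retina 22, 12 and 9 genes of cp-asiNRL replicates 1, 2 and 3 were below all 3 WT vehicle libraries, against 33.1%, 32.0% and 29.5% of all genes. Without CNV cp-asiNRL replicate 2, limma called 20 of 36 genes lower in CNV retina, against 8.66% of all genes: the 6 BBSome genes, Bbs12, Ift20, Ift22, Ift80, Ift81, Ift122, Cep290, Rpgrip1, Nphp4, Lca5, Tulp1, Mak, Arl3 and Unc119. The changes of Unc119 and Bbs7 were then -0.42 (SE 0.077) and -0.46 (SE 0.080), with limma adjusted p = 0.00249 and 0.00179. Replicate 2 was left out because it stood apart in these same data, so the calls without it are not separate evidence. In the same fit 1 gene, Bbs1, was called lower in WT retina (2.34% of all genes), 18 in the mean of both effects (12.4%) and 18 in CNV against WT retina under cp-asiNRL (7.96%). Still 0 were called for CNV against WT retina under vehicle (0.290% of all genes) or for the difference of the effects (0.0469%), where 17 were lower at an unadjusted p under 0.05 (7.58% of all genes). With the 6 WT libraries alone, limma called 5 genes lower in WT retina (6.68% of all genes), Bbs1, Bbs2, Ift20, Tulp1 and Unc119, and Pde6d higher (2.55% of all genes). The limma adjusted p ran from 0.00254 for Bbs1 to 0.0381 for Ift20. With the 6 CNV libraries alone it called 0 (0% of all genes), and 12 were lower at an unadjusted p under 0.05 (5.89% of all genes).

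Rod, cone, bipolar and glial genes also differed in the same libraries as the cilium genes. Over 15 rod genes the median log2 deviation from the WT vehicle mean was -0.62, -0.04 and -0.80 in CNV cp-asiNRL replicates 1, 2 and 3, beside -0.22, -0.03 and -0.21 for the 36 cilium genes and -0.38, -0.08 and -0.46 for the 6 BBSome genes. The summed level of these rod genes, none of them at 0, was 15672, 23229 and 13333 CPM in those libraries, 18980 to 22998 CPM in CNV vehicle, 19306 to 22891 CPM in WT cp-asiNRL and 22581 to 25013 CPM in WT vehicle libraries. The order of the libraries was thus the same for rod genes and for the BBSome within the CNV cp-asiNRL group. Summed over 9 reactive glia genes the level was 356, 194 and 451 CPM in CNV cp-asiNRL replicates 1, 2 and 3, 162 to 345 CPM in CNV vehicle, 159.5 to 231.0 CPM in WT cp-asiNRL and 122 to 126 CPM in WT vehicle libraries. Over 12 microglia genes, of which 1 stayed under 1 CPM in every library, it was 120.3, 70.3 and 131 CPM in CNV cp-asiNRL replicates 1, 2 and 3, 66.5 to 103 CPM in CNV vehicle, 59.3 to 83.4 CPM in WT cp-asiNRL and 54.4 to 58.3 CPM in WT vehicle libraries. Over 10 cone genes the summed level was 1646, 1827 and 1583 CPM in CNV cp-asiNRL replicates 1, 2 and 3 and 1709 to 2023 CPM in CNV vehicle libraries, so that replicates 1 and 3 lay below every CNV vehicle library and replicate 2 among them. In WT retina the cone sums did not overlap, at 1676 to 1792 CPM under cp-asiNRL and 1838 to 1905 CPM under vehicle. Over 9 bipolar genes the sum was 2366, 2623 and 2307 CPM in CNV cp-asiNRL replicates 1, 2 and 3. It was 2452 to 2668 CPM in CNV vehicle libraries, and in WT retina the bipolar sums overlapped. In WT retina 8 ganglion cell genes summed to 313 to 329 CPM under cp-asiNRL and 349 to 367 CPM under vehicle. There 9 pigment epithelium genes summed to 24.4 to 26.5 and 35.3 to 43.3 CPM. Both of these sums overlapped in CNV retina. The part of these cell-type markers in the lower levels of the cilium genes was not tested.

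**Figure D4:**
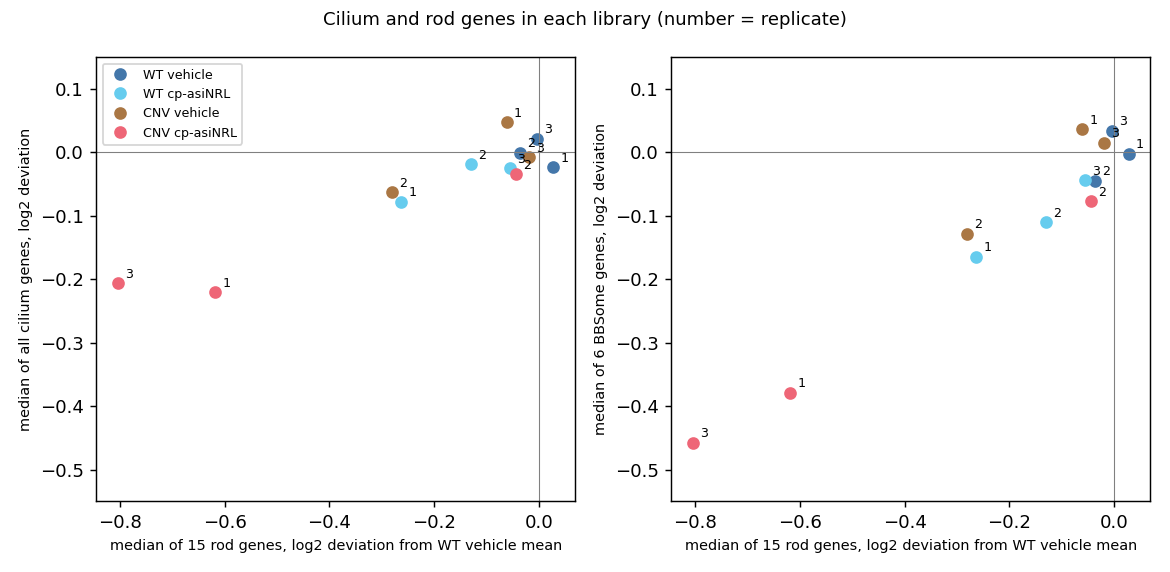
Each point is 1 library, its number the replicate; the x axis is the median log2 deviation of 15 rod genes from the WT vehicle mean, the y axis that of the 36 cilium genes (left) or of the 6 BBSome genes (right). CNV cp-asiNRL replicates 1 and 3 lie at the lower left, at rod medians of -0.62 and -0.80 and BBSome medians of -0.38 and -0.46, apart from the other 10 libraries.

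Gene span moved with the change in WT retina. Over all genes with a mean of at least 5 CPM, the median change under cp-asiNRL in WT retina was -0.11 for genes spanning under 20 kb, -0.01 for 20 to 50 kb and 0.05 for over 50 kb. The members stood at -0.20 (8 genes), -0.05 (12 genes) and -0.01 (16 genes). In CNV retina the medians of all genes were -0.08, -0.03 and 0.02 and those of the members -0.17, -0.10 and -0.14. The members thus lay below the median of all genes in each span class and both retinas. With the trend of level with span removed from each library, 3 of 36 genes were lower in WT retina at an unadjusted p under 0.05 (7.78% of all genes) and 21 in CNV retina (9.43% of all genes). In the mean of both effects Bbs4 was then called and Bbs1 was not (limma adjusted p = 0.0354 and 0.0541). Besides Iqcb1, 11 members share part of their span with another gene, and the 24 members with no overlapping gene had median changes of -0.06 in WT and -0.15 in CNV retina.

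The other genes of the cilium pathway, 70 of a list of 74 found in the table, also had medians below 0. Under cp-asiNRL 59 of 70 were below 0 in CNV retina (49.6% of all genes) and 22 were lower at an unadjusted p under 0.05 (8.41% of all genes), with a median of -0.12. In WT retina 49 were below 0 (49.5% of all genes), with a median of -0.05, and 8 of 70 (11.4%) were lower at that level, a share near the 9.79% of all genes. Tmem237 and Tmem107, which encode transition zone proteins linked to Joubert syndrome, were the 2 called, both lower in the mean of both effects. These 2 of 70 (2.86%) stood near the background, since 2.36% of all genes were called in either direction and 1.65% lower. Tmem237 was at 36.7, 33.7 and 35.4 CPM in WT vehicle, 29.5, 33.8 and 33.9 CPM in WT cp-asiNRL, 37.3, 37.5 and 36.7 CPM in CNV vehicle and 26.3, 32.00 and 27.7 CPM in CNV cp-asiNRL libraries. It fell by 0.24 on the log2 scale (SE 0.051, limma adjusted p = 0.0296). Tmem107 fell by 0.31 (SE 0.071, limma adjusted p = 0.0399), from a level of 7.18 CPM in WT vehicle retina. Both calls were kept without CNV vehicle replicate 1 or CNV cp-asiNRL replicate 2 and lost without any of the other 10 libraries, with no filter on low values and with the replicate block, and that of Tmem107 also with library totals and with the span trend removed. Over the 20 settings run the limma adjusted p ran from 0.000501 to 0.0955 for Tmem237 and from 0.000652 to 0.117 for Tmem107. Ttc8 and Arl6, the BBSome subunit and the GTPase that docks it, were at -0.25 (SE 0.063) and -0.11 (SE 0.093) in CNV retina, and the chaperonin-like Mkks at -0.20 (SE 0.066). Arl2, a GTPase related to Arl3, and its partner Arl2bp were at -0.22 (SE 0.084) and -0.18 (SE 0.059) in WT retina and -0.06 (SE 0.084) and -0.04 (SE 0.059) in CNV retina. The whole span of Arl2 lies inside another gene on the opposite strand, with mean reads of 937 against 822, so its level is uncertain. Of the 13 axoneme genes in the list, 12 were below 0 in CNV retina, with a median of -0.19. Genes of motile cilia, which the retina is not known to carry, had a median change of -0.05 in CNV retina over the 10 tested. Mcidas and Foxj1, their master regulators, stood at 0.102 and 1.83 CPM in WT vehicle retina. Such low levels did not hold for the whole list of 11 genes, which reached a sum of 260.6 CPM in WT vehicle replicate 3. Of the 11, 3 stayed under 1 CPM in every library. Dnah9 and Ccdc39 held means of 9042 and 5736 reads a library, and both share part of their span with other genes.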

How the data were processed

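The labels' protocols describe a strand-marked kit for messenger RNA, and the submitters' processing notes name HISAT2 2.1.0, featureCounts 1.6.0 and mm10, although the gene positions in the table are GRCm39. Columns are headed FPKM, per the file headers, but the deposited signal times gene length was whole within 1e-06 for all 482424 values. It is therefore reads divided by length, where length is genomic span for all 40200 genes at 1 locus. Columns whose names lack CNV were taken as WT retina. Reads of overlapping genes could not be told apart by strand.

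From the recovered reads, CPM were computed with trimmed-mean factors (trims 30% and 5%). The filter asked for 15 reads in all and, in 3 or more libraries, a CPM worth 10 reads in a library of median size. limma 3.58.1 with a trend (R 4.3.3) was fitted to log2(CPM + 1), a scale that understates changes of low genes, with 4 group means over 12 libraries. Apart from limma voom on the recovered reads, no test made for counts was run, because the values are not counts as deposited. No pair of libraries matched within sampling noise (chi-square per gene at least 4.20). Members and lists were chosen with earlier results of these data known. Genes described in full were those called or with the 3 smallest p in a comparison, and further members and Bbs7's promoter were added after their values were seen. Alternatives were other scalings, filter, pseudocount, weights, span trend, replicate block, voom, libraries of the compared groups and leaving out each library.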

Additional observations from a re-analysis of the deposited data

How the results depend on the processing

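No called direction reversed under the alternatives run, and the number of the 36 cilium genes called depended on the library weights and on single libraries. For cp-asiNRL against vehicle in WT retina the count was 0, where 0.141% of all genes were called in the same fit. It was 2 with limma array weights (6.59% of all genes) and 6 with the WT libraries alone (9.23%). When each library was left out in turn it was 0 to 1, the 1 without CNV cp-asiNRL replicate 2 (3.02%). In CNV retina the count was 0 (0.0468% of all genes), against 16 with array weights (15%). It was 0 to 20 over the fits that left out 1 library, the 20 without CNV cp-asiNRL replicate 2 (17.5%). For the mean of both effects it was 2 (2.36% of all genes), against 1 with library totals (1.68%), limma voom (1.91%) or the span trend removed (1.39%). It was 0 with no filter on low values (0.337%) or with the replicate block (0.332%), and 16 with array weights (25.1%). When 1 library was left out it ran from 0 to 18, the 18 without CNV cp-asiNRL replicate 2 (22.6%). For CNV against WT retina under cp-asiNRL it was 0 (0% of all genes), against 18 with array weights (19.9%). It was 0 to 18 with 1 library left out, the 18 without CNV cp-asiNRL replicate 2 (17.9%). The counts for CNV against WT retina under vehicle and for the difference of the effects were 0 in each of these fits, where at most 0.692% of all genes were called. With the replicate block 0 of the 36 genes were called in any comparison, where at most 0.332% of all genes were. The labels do not say whether the replicate numbers pair the libraries. Of 18 correlations of same-numbered deviations, 4 exceeded 0.1 (range -0.52 to 0.31), which cannot decide this with 3 libraries a group. The median change of the 36 genes stayed below 0 in each alternative for cp-asiNRL in WT retina (-0.06 to -0.01) and in CNV retina (-0.21 to -0.09). Each of the 36 genes had at least 440 reads in every library, and the power to call changes of this size was not tested.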
